A study of Mus musculus with 9 samples.

Results

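The 9 genes Dazl, Boll, Cpeb1, Pum2, Ybx1, Ybx2, Ybx3, Elavl1 and Qk encode RNA-binding proteins that store mRNAs or control their translation and stability in germ cells. They were taken by name from the 55401 genes of the deposited table, by a list that sets no limit on their counts but was made with earlier results of these data known, and all 9 had counts in every library and passed the filter on low counts. The table holds 9 libraries of poly(A) RNA from testes of wild-type male mice (strain ICR by the study's methods). In 3 libraries no antibody was used (input), in 3 the RNA was recovered with a rabbit IgG isotype control, and in 3 with an antibody against N4-acetylcytidine (ac4C), a modified base written by NAT10 (acRIP). All RNA was selected on oligo(dT) beads, received an ac4C-containing β-globin probe for affinity purification, and was amplified as cDNA by Smart-seq2 from oligo(dT) primers. Input RNA was brought to a fixed concentration, whereas the IgG and acRIP eluates were too dilute to measure and were used by volume. The age of the mice is not given in the sources used here. The sources call the libraries triplicates without saying whether they came from separate mice or separate precipitations, so p-values measure only the spread between these samples, which may be technical.

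Male germ cells transcribe many mRNAs well before the proteins are made, because chromatin compaction in elongating spermatids shuts transcription down. In between, the mRNAs are held in ribonucleoprotein particles by Y-box proteins, which contain a cold-shock domain, and are switched on or off through elements in their 3' untranslated regions. DAZ family proteins promote translation, CPEB proteins read the cytoplasmic polyadenylation element and lengthen or shorten poly(A) tails, Pumilio proteins repress and destabilise their targets, HuR (the product of Elavl1) binds AU-rich elements, and Quaking (the product of Qk), a STAR family protein, acts on splicing and stability. The comparisons asked how large a share of the acRIP libraries each of these mRNAs took, relative to the IgG and input libraries. Values are relative within amplified libraries, so the amount of an mRNA recovered by either antibody cannot be read from them.

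The Y-box genes and the DAZ family genes are related in coding sequence, which bears on whether reads can be told apart. The windows below, in mm10, show the most alike stretch of each family, 30 coding bases that fall within exon 4 of each Y-box gene (cold-shock domain family) and exon 3 of both DAZ family genes. Capitals mark the 26 bases that are identical in all members of the family, and lower case marks the 4 that differ.
Ybx1, chr4:119282787-119282816, minus strand: GAgACTGTgGAGTTTGATGTtGTtGAAGGA
Ybx2, chr11:69939292-69939321, plus strand: GAgACTGTgGAGTTTGATGTcGTgGAAGGA
Ybx3, chr6:131380882-131380911, minus strand: GAaACTGTaGAGTTTGATGTaGTtGAAGGA
Dazl, chr17:50288645-50288674, minus strand: CCagATATGGcTCaGTAAAAGAAGTGAAGA
Boll, chr1:55355679-55355708, minus strand: CCcaATATGGgTCtGTAAAAGAAGTGAAGA
The longest run of identical coding bases was 26 between Ybx1 and Ybx2, 20 between Ybx1 and Ybx3, 18 between Ybx2 and Ybx3 and 17 between Dazl and Boll. Each family member could therefore be counted apart from its relatives by reads longer than these runs.

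The counts are uniquely mapped reads per gene. Total counts ranged from 22023925 to 31340090 in input, from 14647542 to 18786779 in IgG and from 16025779 to 18639134 in acRIP. Between 81.9% and 84.3% of genes with 1 to 20 counts had an even count, so counting error is larger than the counts themselves show. Loci with ribosomal RNA-like sequence took 0.555% to 0.627% of the counts in input, 5.30% to 5.74% in IgG and 9.80% to 11.1% in acRIP. Testis markers fitted the label, since 5 spermatid markers (Acrv1, Tnp1, Tnp2, Prm1 and Prm2) summed to between 25961 and 33462 FPKM, the count scaled by gene length and by the library's total, in every library. Among 5 Sertoli cell markers, Rhox5 was listed at 0 in all libraries. The summed FPKM of 5 spermatocyte markers was 444 to 475 in input, 438 to 458 in IgG and 345 to 363 in acRIP, and that of 3 macrophage markers was 4.09 to 5.48, 4.77 to 7.10 and 0.317 to 1.06. Hspa2 was the largest part of the spermatocyte sum (271 FPKM in input). Sycp1 was higher in acRIP (50.1 FPKM) than in input (35.7), while the other 4 were lower. The 2 endothelial markers summed to 0.496 to 0.740, 0.273 to 0.460 and 1.28 to 1.85, with Cdh5 up and Pecam1 down in acRIP. The part that these shifts play in the results that follow was not tested.

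In input, Ybx2 was the highest of the 9 mRNAs at 82.5 ± 0.734 FPKM (SD, n = 3 here and in the levels that follow), above 96.5% of the genes with a count in that group. Boll followed at 52.9 ± 2.63 FPKM and Dazl at 51.1 ± 2.97 FPKM, and the libraries of these 2 DAZ family genes overlapped. Ybx1 stood at 37.6 ± 2.67 FPKM and Ybx3 at 32.0 ± 3.03 FPKM, also overlapping. Elavl1 was clearly lower at 7.60 ± 0.330 FPKM, Qk and Pum2 overlapped at 3.76 ± 0.253 and 3.21 ± 0.412 FPKM, and Cpeb1 was the lowest at 1.52 ± 0.379 FPKM. These are levels in bulk testis RNA, in which fewer cells of a type and less RNA per cell cannot be told apart.

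The order changed in both kinds of eluate. In IgG it ran Ybx1 (282 ± 3.58 FPKM), Ybx2 (223 ± 11.6), Ybx3 (185 ± 3.01), Dazl (38.4 ± 0.255), Boll (27.1 ± 1.67), Qk (12.6 ± 0.780), Pum2 (11.6 ± 1.33), Elavl1 (11.1 ± 0.850) and Cpeb1 (1.08 ± 0.223). Only the neighbours Qk and Pum2, and Pum2 and Elavl1, overlapped there. In acRIP it ran Ybx2 (287 ± 6.56 FPKM), Ybx1 (249.9 ± 8.35), Ybx3 (216 ± 4.26), Dazl (32.2 ± 3.06), Boll (22.3 ± 0.408), Elavl1 (12.3 ± 0.497), Pum2 (12.0 ± 0.178), Qk (8.57 ± 0.909) and Cpeb1 (0.876 ± 0.180), and only Elavl1 and Pum2 overlapped. The 3 Y-box mRNAs therefore led both eluates, while in input Boll and Dazl lay above Ybx1 and Ybx3.

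**Figure D1:**
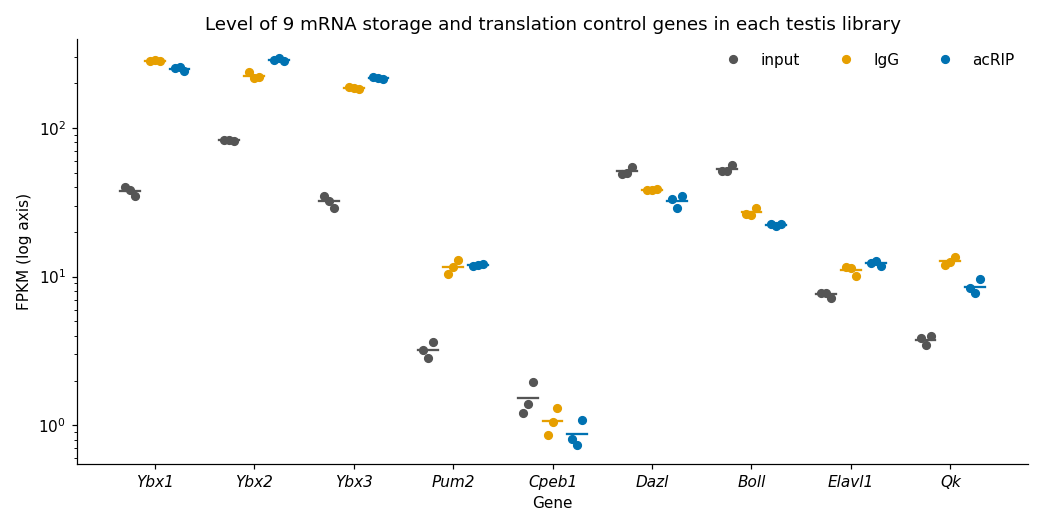
FPKM (log axis) of the 9 genes, with a point for each of the 3 input, 3 IgG and 3 acRIP libraries and a bar at the group mean. The Y-box genes lie at 28.8 to 83.1 FPKM in input and at 183 to 294 FPKM in the IgG and acRIP libraries, whereas Dazl and Boll are highest in input.

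The comparisons used edgeR's quasi-likelihood test across the 22510 genes that passed the filter, with Benjamini-Hochberg adjustment over all of them. A gene is said to rise or fall where the adjusted p was under 0.05, and to be called where the fold change was also over 2. Intervals are 95% confidence intervals, and errors of log2 fold changes are standard errors (SE). The 3 comparisons share libraries and are not independent of each other.

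The Y-box mRNAs were much more abundant in both eluates than in input. These genes encode YB-1 (Ybx1, made in most proliferating cells), MSY2 (Ybx2, restricted to germ cells, where it packages and stabilises stored mRNA) and YB-3 or MSY4 (Ybx3, also abundant in testis). Their share of all counts was 0.0331% to 0.0365% in the input libraries, 0.168% to 0.174% in IgG and 0.179% to 0.187% in acRIP, with no overlap between input and either eluate. The share of all 9 genes together moved from 0.0879% to 0.0901% in input to 0.232% to 0.234% in IgG and 0.235% to 0.240% in acRIP.

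Ybx1 (ENSMUSG00000028639.14, chr4:119277981-119294604) had 40.0, 38.0 and 34.7 FPKM in input, 280.02, 286 and 280.25 in IgG, and 252, 257 and 241 in acRIP. The IgG libraries were the highest, the acRIP libraries lay just below them without overlap, and the input libraries were far lower. Its log2 fold change over input was 2.94 ± 0.05 in IgG (7.66-fold, adjusted p = 2.57e-31) and 2.81 ± 0.05 in acRIP (7.02-fold, adjusted p = 9.16e-31).

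Ybx3 (ENSMUSG00000030189.15, chr6:131364855-131388476) had 34.9, 32.2 and 28.8 FPKM in input, 189, 185 and 183 in IgG, and 221, 215 and 212 in acRIP. Here the acRIP libraries were above every IgG library. Over input it rose by 2.56 ± 0.05 on the log2 scale in IgG (5.91-fold, adjusted p = 4.20e-29) and by 2.83 ± 0.05 in acRIP (7.13-fold, adjusted p = 3.85e-30).

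Ybx2 (ENSMUSG00000018554.13, chr11:69935796-69941605) had 83.1, 82.7 and 81.7 FPKM in input, 237, 215 and 218 in IgG, and 287, 294 and 281 in acRIP. It was the most abundant of the 3 in input, changed the least of them over input, and was again the highest in acRIP. Its log2 fold change over input was 1.47 ± 0.04 in IgG (2.76-fold, adjusted p = 2.61e-24) and 1.88 ± 0.04 in acRIP (3.68-fold, adjusted p = 3.24e-27).

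The DAZ family mRNAs moved the other way. Dazl, which encodes an activator of translation needed from germ-cell entry into meiosis onward, and Boll, which encodes its relative BOULE, needed for spermatid development, were both lower in the eluates than in input. Dazl (ENSMUSG00000010592.9, chr17:50279395-50293636) had 48.9, 49.96 and 54.5 FPKM in input, 38.4, 38.1 and 38.6 in IgG, and 33.0, 28.8 and 34.8 in acRIP. Boll (ENSMUSG00000025977.15, chr1:55248658-55363469) had 51.4, 51.4 and 55.9 FPKM in input, 26.4, 25.8 and 29.0 in IgG, and 22.6, 21.9 and 22.5 in acRIP. For both genes no libraries overlapped between any pair of groups. Dazl fell by 0.38 on the log2 scale from input to IgG (SE 0.05, adjusted p = 4.13e-07) and by 0.59 from input to acRIP (SE 0.05, adjusted p = 4.13e-11). Boll fell by 0.93 from input to IgG (SE 0.05, 1.91-fold, adjusted p = 6.04e-16) and by 1.16 from input to acRIP (SE 0.06, 2.24-fold, adjusted p = 1.94e-18). The fall of Boll from input to IgG lay just under the 2-fold limit and passed it with upper-quartile scaling, at -1.03.

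Pum2, which encodes a Pumilio repressor, was about 4 times as abundant in the eluates. Pum2 (ENSMUSG00000020594.14, chr12:8674134-8752581) had 3.19, 2.81 and 3.64 FPKM in input, 10.3, 11.6 and 13.0 in IgG, and 11.8, 12.0 and 12.2 in acRIP. The acRIP libraries lay within the range of the IgG libraries, and both groups lay above input. Its log2 fold change over input was 1.89 ± 0.08 in IgG (3.71-fold, adjusted p = 3.35e-19) and 1.98 ± 0.08 in acRIP (3.95-fold, adjusted p = 7.66e-20).

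Cpeb1, which encodes the cytoplasmic polyadenylation element binding protein, was the least abundant of the 9, and its values are the least precise. Cpeb1 (ENSMUSG00000025586.17, chr7:81347026-81455465) had 160, 129 and 181 counts in input, 53, 83 and 102 in IgG, and 54, 58 and 76 in acRIP. Per length and depth this was 1.22, 1.40 and 1.95 FPKM in input, 0.863, 1.05 and 1.31 in IgG, and 0.804, 0.742 and 1.08 in acRIP. Input and IgG libraries overlapped, as did IgG and acRIP libraries, while the acRIP libraries were all below the input libraries. From input to acRIP it fell by 0.71 on the log2 scale (SE 0.24, adjusted p = 0.00934), but without input replicate 3, the highest of the group, the change was -0.49 and the adjusted p was 0.105. Between IgG and input its log2 fold change was -0.45 (95% interval -0.94 to 0.03, adjusted p = 0.108), and with upper-quartile scaling it passed the threshold at -0.55 (adjusted p = 0.0479).

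Elavl1 and Qk were both higher in the eluates than in input. Elavl1 (ENSMUSG00000040028.10, chr8:4285382-4325413) had 7.80, 7.78 and 7.22 FPKM in input, 11.6, 11.5 and 10.1 in IgG, and 12.4, 12.7 and 11.8 in acRIP. It rose over input by 0.57 ± 0.06 on the log2 scale in IgG (1.48-fold, adjusted p = 9.75e-10) and by 0.77 ± 0.06 in acRIP (1.71-fold, adjusted p = 4.54e-13), so in neither case by over 2-fold. Its exons share 204 bases with Ccl25 on the opposite strand, and Ccl25 had at most 428 counts in any library, against at least 1660 for Elavl1.

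Qk (ENSMUSG00000062078.15, chr17:10202601-10319854) had 3.84, 3.48 and 3.96 FPKM in input, 11.9, 12.5 and 13.5 in IgG, and 8.36, 7.79 and 9.57 in acRIP. The acRIP libraries lay between the other groups without touching either. Its log2 fold change over input was 1.78 ± 0.07 in IgG (3.43-fold, adjusted p = 2.09e-21) and 1.27 ± 0.07 in acRIP (2.41-fold, adjusted p = 1.71e-17).

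In counts, 5 of the 9 genes (Ybx1, Ybx2, Ybx3, Pum2 and Qk) were called higher in IgG than in input, beside 13.5% of all tested genes, and none was called lower, beside 7.22%. At any fold 6 rose and 2 fell, beside 25.9% and 26% of tested genes, and in the same numbers the libraries did not overlap, beside 29.1% and 29.9%. The same 5 genes were called higher in acRIP than in input, beside 17.7% of tested genes, and 1, Boll, was called lower, beside 22.9%. At any fold 6 rose and 3 fell, beside 32% and 40.3%, and 6 and 3 did not overlap, beside 33.4% and 41.5%. Being called higher than input in both eluates held for 7.94% of tested genes, and being called lower in both for 3.5% and for none of the 9. The median log2 fold change of the 9 genes over input was 1.47 in IgG and 1.27 in acRIP, while that of all tested genes was -0.01 and -0.10.

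**Figure D2:**
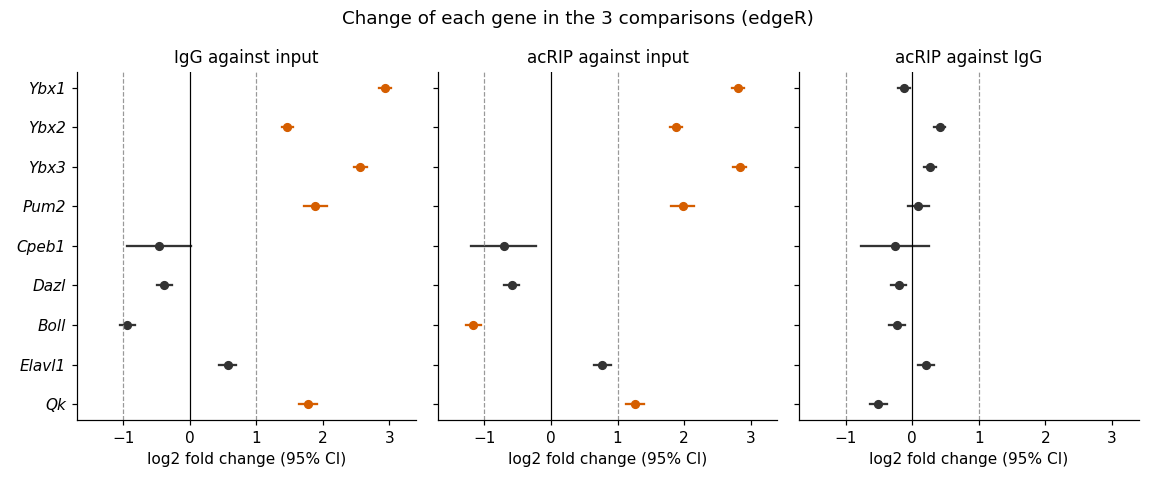
Log2 fold change of each gene (horizontal axis, point) with its 95% confidence interval (line) in the 3 comparisons, dashed lines marking a 2-fold change and orange marking genes called by edgeR. Ybx1, Ybx2, Ybx3, Pum2 and Qk lie above 1 in both comparisons with input and Boll lies below -1 in acRIP against input alone, whereas all 9 lie between -0.51 and 0.41 in acRIP against IgG.

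Against IgG, the comparison that holds recovery on beads in common, no gene of the 9 was called in acRIP in either direction by edgeR, beside 11.5% of tested genes called higher and 20.9% called lower. DESeq2 and the test against a 2-fold change also called none, although 7 of the 9 had an unadjusted p under 0.05. At an adjusted p under 0.05 and any fold, 3 rose and 4 fell, beside 26.4% and 37.6% of tested genes, and these were also the 3 and 4 genes whose libraries did not overlap, beside 27.8% and 37.8%. Their median log2 fold change was -0.13, that of all tested genes -0.09.

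Ybx2 rose the most, by 0.41 ± 0.04 on the log2 scale (1.33-fold, 95% interval 0.33 to 0.49, adjusted p = 4.88e-10). Ybx3 rose by 0.27 ± 0.05 (1.21-fold, adjusted p = 5.78e-06) and Elavl1 by 0.21 ± 0.06 (1.15-fold, adjusted p = 0.00341). The rise of Elavl1 missed the threshold on the log2(FPKM + 1) scale with limma (adjusted p = 0.104).

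Qk fell the most, by 0.51 (SE 0.06, 1.43-fold, 95% interval -0.64 to -0.38, adjusted p = 3.00e-08). Boll fell by 0.23 (SE 0.06, adjusted p = 0.000805) and Dazl by 0.21 (SE 0.06, adjusted p = 0.00193). Ybx1 fell by 0.13 (SE 0.04, adjusted p = 0.0103), a change that missed the threshold without IgG replicate 2 (adjusted p = 0.0517), without acRIP replicate 1 (0.0691), without acRIP replicate 3 (0.0899) and with upper-quartile scaling (0.122). Spermatocyte markers were also lower in acRIP than in IgG, as given above, and their part in the falls of Dazl and Boll was not tested.

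Pum2 and Cpeb1 did not pass the test against IgG. The log2 fold change of Pum2 was 0.09, with a 95% interval of -0.07 to 0.25 (adjusted p = 0.317). That of Cpeb1 was -0.26, with a wide interval of -0.77 to 0.25 (adjusted p = 0.38), so neither direction is settled.

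**Figure D3:**
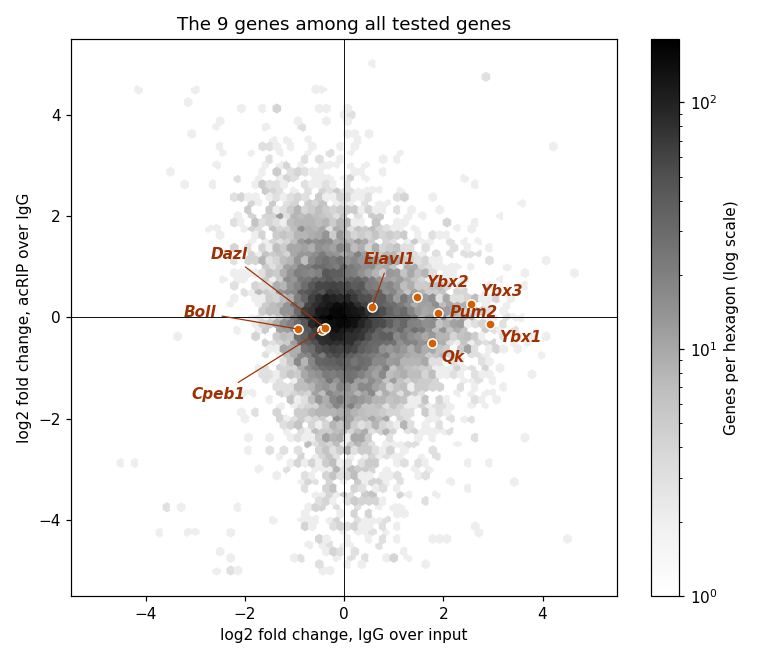
Log2 fold change of IgG over input (horizontal axis) and of acRIP over IgG (vertical axis), with grey hexagons shaded by the number of genes (20141 of the tested genes fall within 5 on both axes and 2369 lie outside) and orange points for the 9 genes. Ybx1, Ybx2, Ybx3, Pum2 and Qk lie far to the right, at 1.47 to 2.94, and between -0.51 (Qk) and 0.41 (Ybx2) on the vertical axis.

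Ratios of the FPKM of related mRNAs within a library do not depend on how libraries are scaled. The pairs were chosen after the levels had been seen, so the 12 exact permutation tests of their log2 ratios (two-sided, 3 against 3 libraries) serve as description, and 0.1 is the smallest p they can give. The ratio of Ybx2 to Ybx1 was 2.08, 2.18 and 2.35 in input, 0.845, 0.752 and 0.779 in IgG, and 1.14, 1.14 and 1.17 in acRIP. The 3 groups did not overlap (exact p = 0.1 in each comparison). Which of the genes was higher in acRIP depended on the scale, since the ratio of raw counts there was 0.847, 0.851 and 0.868, and the level of Ybx1 is uncertain because of near-identical copies, as described further on.

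The ratio of Ybx3 to Ybx1 was 0.872, 0.849 and 0.830 in input, 0.674, 0.645 and 0.653 in IgG, and 0.876, 0.839 and 0.882 in acRIP. Input and acRIP overlapped (exact p = 0.5), and IgG lay below both (exact p = 0.1). The ratio of Ybx2 to Ybx3 was 2.38, 2.56 and 2.83 in input, 1.25, 1.17 and 1.19 in IgG, and 1.30, 1.36 and 1.32 in acRIP, with no overlap between groups (exact p = 0.1).

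Boll and Dazl were nearly equal in input, with ratios of 1.05, 1.03 and 1.03. The ratio of Boll to Dazl was 0.688, 0.678 and 0.750 in IgG and 0.685, 0.759 and 0.648 in acRIP. Both eluates lay below input (exact p = 0.1), and they overlapped each other (exact p = 0.9).

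**Figure D4:**
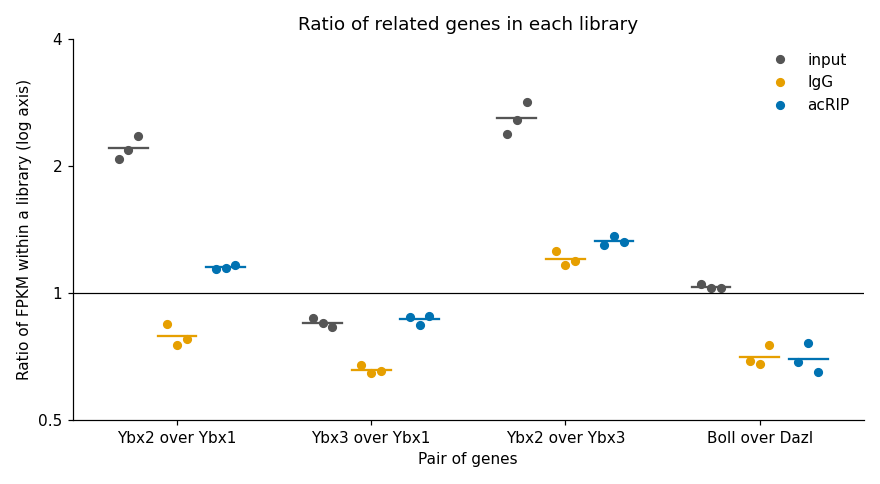
Ratio of FPKM between related genes within each library (vertical log axis), with a point per library and a bar at the group mean for input, IgG and acRIP. Ybx2 over Ybx1 is 2.08 to 2.35 in input, under 1 in IgG and 1.14 to 1.17 in acRIP, and Boll over Dazl is 1.03 to 1.05 in input and under 1 in both eluates.

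Near-identical copies elsewhere in the genome limit the count of some of these genes, because only uniquely mapped reads were counted. Of the exon bases of Ybx1, 50.4% had a copy of at least 95% identity over at least 100 bases at 4 other loci. For Ybx2 this was 19.4% at 1 locus, for Qk 3.88% at 2 loci and for Elavl1 1.02% at 1 locus, and none was found for Dazl, Boll, Cpeb1, Pum2 or Ybx3. The level of Ybx1 relative to other genes is therefore uncertain. The annotated pseudogene Ybx1-ps2 had 30 to 56 counts in input, 215 to 273 in IgG and 125 to 159 in acRIP, against at least 1950 for Ybx1 itself. The unclassified transcript Cpeb1os1, named after Cpeb1 but not overlapping its coordinates, had 2 to 14 counts in input, 11 to 26 in IgG and 0 in every acRIP library.

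The 9 transcripts differ widely in composition and length, which the choice of genes did not use. Ybx2 had the shortest merged exons (1885 bases) and the highest GC content, 62.5%, above 99.0% of the 15512 tested protein-coding genes. Qk had the longest (14242 bases) at 39.3% GC, and Elavl1 followed with 10363 bases at 43.5%. Dazl (37.3%) and Boll (38.5%) were low in GC, as was Pum2 (43.0%), while Cpeb1 (48.0%), Ybx1 (48.8%) and Ybx3 (51.9%) were near the median of 49.1%. Of the transcripts of low GC, Dazl and Boll were lower in the eluates than in input, and Qk and Pum2 were higher. The relation of GC content or length to recovery was not tested.

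The letters CNCAGNNC (N any base), a shortened and widened form of the motif described for ac4C peaks in testis, were searched on both strands of the exons. They occurred in the sense direction in 96.4% of the tested protein-coding genes, at a median of 1.67 matches per kilobase, so a match is common. Ybx2 held 4 sense matches (2.12 per kilobase) and Qk 11 (0.772 per kilobase), the genes that rose and fell the most against IgG. On the antisense strand Ybx2 also held 4 (2.12 per kilobase) and Qk held 20 (1.40 per kilobase), beside a median of 1.815. Whether the density of matches is related to recovery was not tested. Among the others the sense density was 0.785 in Dazl, 0.790 in Ybx1, 0.854 in Boll, 1.10 in Pum2, 1.63 in Ybx3, 1.67 in Cpeb1 and 1.83 per kilobase in Elavl1. The first coding match of Ybx2 (exon 1) and of Qk (exon 4) is shown with its surroundings, the match in capitals, and a match is a description of the letters, not a site. Neither shown match fits the study's own motif, CHCAGSHC (H is A, C or U, and S is C or G). The Ybx2 match has G at the second H, and the Qk match has A at S.
Ybx2, chr11:69936140-69936169, plus strand: gctgggaccccCTCAGCGCccggccctcgc
Qk, chr17:10238942-10238971, minus strand: tgtggaagatgCTCAGAACagagcagaaat

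Among 53 other genes of mRNA storage and translation control (paralogs of the 9, storage granule proteins, germ-cell regulators and other RNA-binding regulators), 49 were tested. In IgG against input 14 were called higher and 0 lower, with a median log2 fold change of 0.47. In acRIP against input 14 were called higher and 2 lower, Elavl2 and Igf2bp1, with a median of 0.66. In acRIP against IgG 3 were called higher and 3 lower, with a median of 0.10, but 1 and 0 with the test against a 2-fold change. The list was drawn up with results of these data known, and the backgrounds of all tested genes are those given above. Of the 4 untested genes, Celf1 was listed at 0 in every library, and Igf2bp2, Nanos2 and Eif4e1b were below the filter.

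Zar1 and Lin28a were the listed genes called higher in acRIP against both IgG and input, as were 7.88% of tested genes. Zar1, which encodes an RNA-binding protein best known from oocytes, had 8, 6 and 6 counts in input, 14, 18 and 56 in IgG, and 307, 317 and 244 in acRIP. It was far higher in acRIP than in any other library, with a log2 fold change over IgG of 3.38 ± 0.28 (adjusted p = 1.57e-11), and of 4.18 without IgG replicate 3. Lin28a, which encodes an RNA-binding protein of undifferentiated spermatogonia and blocks let-7 maturation, had 28, 22 and 12 counts in input, 12, 12 and 14 in IgG, and 26, 32 and 46 in acRIP. Its log2 fold change over IgG was 1.504 ± 0.48 (adjusted p = 0.00729), and without acRIP replicate 3 it missed the threshold at 1.24 (adjusted p = 0.0559). Elavl2 was called lower in acRIP against both, as were 17% of tested genes. With the test against a 2-fold change, Lin28a was not called against IgG (adjusted p = 0.189) or input (0.208). Nor was Elavl2 (0.12 and 0.167).

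The other genes of the list called against IgG were named after their values had been seen. Zfp36, which encodes the mRNA-destabilising protein tristetraprolin, rose by 1.20 ± 0.27 on the log2 scale (adjusted p = 0.000323). Patl2, an oocyte translational repressor gene, fell by 1.75 (SE 0.55, adjusted p = 0.0066), and Fxr2, a paralog of the fragile X gene Fmr1, fell by 1.08 (SE 0.09, adjusted p = 2.40e-11). Patl2 had only 3 to 10 counts in input, 20 to 46 in IgG and 8 to 13 in acRIP. Fxr2 was highest in IgG (3.52 FPKM in input, 14.9 in IgG and 6.83 in acRIP) and was called higher in acRIP than in input (1.04). That call over input was lost with the test against a 2-fold change (adjusted p = 0.377). It was also lost with upper-quartile scaling (0.991), library totals (0.961), the log2(FPKM + 1) scale (0.793) and without input replicate 1 (0.994). With the test against a 2-fold change, Zfp36, Patl2 and Fxr2 were not called against IgG (adjusted p = 0.307, 0.112 and 0.259).

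The other CPEB genes were higher in acRIP than in input, whereas Cpeb1 fell, and the difference between them was not tested. On the log2 scale Cpeb2 rose over input in both eluates (1.75 in IgG and 1.64 in acRIP), Cpeb3 rose by 0.94 and 0.61, and Cpeb4, at 0.15 in IgG, rose by 0.43 in acRIP. Cpeb1 was the least abundant of the 4 CPEB genes in input, at 1.52 FPKM against 5.55 for Cpeb2, 5.56 for Cpeb3 and 6.74 for Cpeb4. The neuronal ELAV genes were all under 2 FPKM. Elavl2 fell by 1.32 from IgG to acRIP (SE 0.24, adjusted p = 2.27e-05), Elavl3 rose over input by 2.09 in IgG from at most 24 counts per input library, and Elavl4 was at -0.27 over input in IgG and 0.07 in acRIP over IgG.

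**Figure D5:**
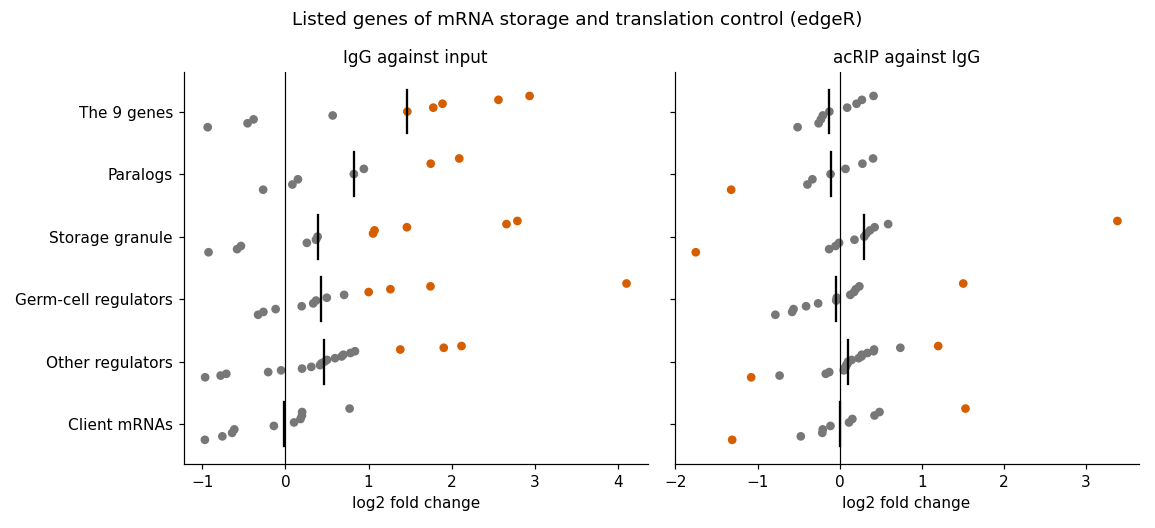
Log2 fold change (horizontal axis) in IgG against input (left) and acRIP against IgG (right), with a point per gene, orange where edgeR called it, a black bar at the median of the group, and the groups of listed genes as rows. The 9 genes have a median of 1.47 in IgG against input and of -0.13 in acRIP against IgG, and none of them is orange in the right panel.

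Known client mRNAs of these proteins formed a separate list of 10 genes, all tested. It holds the spermatid mRNAs Prm1, Prm2, Tnp1, Tnp2 and Smcp, which are stored under Y-box protein control, and the germ-cell mRNAs Ddx4, Sycp1, Sycp3, Cdc25c and Tex19.1. None was called in IgG against input, beside 13.5% of all tested genes called higher and 7.22% called lower, although 4 rose and 5 fell at any fold, beside 25.9% and 26%. In acRIP against input, beside 17.7% of tested genes higher and 22.9% lower, 0 were called higher and 2 lower, Tex19.1 (log2 fold change -2.07, SE 0.18, adjusted p = 6.42e-12) and Ddx4, the VASA helicase gene (-1.12, SE 0.04, adjusted p = 2.50e-21). In acRIP against IgG, beside 11.5% and 20.9%, 1 was called higher, the cell-cycle phosphatase gene Cdc25c (1.53, SE 0.12, adjusted p = 4.92e-12), and 1 lower, Tex19.1 (-1.31, SE 0.18, adjusted p = 3.86e-07). Tex19.1 was not called there with the test against a 2-fold change (adjusted p = 0.0629). Cdc25c was also lower in IgG than in input (-0.97, SE 0.12, adjusted p = 3.27e-08), and over input it rose by 0.56 in acRIP (SE 0.11, adjusted p = 4.59e-05). Ddx4, Cdc25c, Prm2 and Tnp1 were named after their values had been seen. Of the 5 spermatid clients, 4 rose and 1 fell from IgG to acRIP at any fold, beside 26.4% and 37.6% of all tested genes, none by over 2-fold. Their log2 fold changes ran from -0.11 in Prm2 (SE 0.02, adjusted p = 0.000104) to 0.48 in Tnp1 (SE 0.05, adjusted p = 3.65e-10).

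Genes whose pattern over the 9 libraries was most like that of a member were taken from the tested protein-coding genes by the root mean square difference of centred, depth-scaled log2 counts. The closest to Ybx1 were Dnajc21 (0.0432) and Stard10, to Ybx2 Spg7 (0.0421), Phc1 and Tle3, and to Ybx3 Ift57 (0.0912), Hspa1l and Gm10638. The closest to Dazl were Kdm3a (0.0423), Trim69 and Actr10, and to Boll Mak (0.0543), Lpcat2b and Abcf2. Those of Pum2 were Pi4k2a (0.0808), Rnf139 and Dgat1, of Cpeb1 Colgalt1 (0.163), Clk1 and Tac1, of Elavl1 Svbp (0.0463), Anapc11 and Mrpl45, and of Qk Apba1 (0.0839), Golga4 and Stt3b. The number of genes within 0.2 depends both on how common a pattern was and on how precisely it was measured. It was 1804 for Dazl, 767 for Elavl1 and 458 for Boll, but 33 for Ybx1, 41 for Ybx3, 138 for Ybx2, 106 for Pum2, 104 for Qk and 22 for Cpeb1. Counting noise can set a gene with few counts apart from all others, so the number for Cpeb1 cannot be read as a rare pattern.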

How the data were processed

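Mouse testis poly(A) RNA (wild type) was sequenced as 3 input, 3 IgG and 3 acRIP libraries, grouped by the sample labels. The authors trimmed reads with Trim Galore 0.6.7, mapped them to mm10 with STAR 2.7.10a, counted uniquely mapped reads with featureCounts 2.0.2 and deposited the counts per gene without normalization. The strand setting, and whether mates were counted separately, are not given in the sources used here, and duplicates were not stated to be removed before counting. Genes were named through GENCODE vM21 (55141 of 55401 identifiers).

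Counts were tested here with edgeR 4.0.16 in R 4.3.3 (filterByExpr, TMM, quasi-likelihood test, all 9 libraries, group only), with thresholds of 0.05 on the adjusted p and 2 on the fold change. FPKM was computed from the counts, the merged-exon lengths in the table and the total counts. Uniquely mapped reads undercount genes with near-identical copies, and total counts bound the precision of low genes such as Cpeb1. DESeq2 1.42.0 and limma 3.58.1 on log2(FPKM + 1), with other scalings, filters, halved counts, the replicate number as a block and fits lacking 1 library at a time, were alternatives. On simulated counts of acRIP against IgG over 22510 genes, edgeR recovered 100% of 200 changed genes with 3 false calls. The fold change and count level set for the 200 genes are not given here. Recovery in the real counts was not tested. Nor was recovery of differences under 2-fold, such as those of the 9 genes between acRIP and IgG. Copies were searched with BLAST 2.17.0, and sequences were read from the mm10 genome by coordinates, where exon lengths equalled those of the table for 22490 tested genes.

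The 9 genes and all lists were chosen with earlier results of these data known. Named genes were the 9, paralogs of the listed families, listed genes called in acRIP against both other groups, and the 3 nearest patterns of each gene. Peaks, signal tracks and other cell types of the study were not analysed here. Some items of the lists are not reported here.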

Additional observations from a re-analysis of the deposited data

How the results depend on the processing

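The calls of the 9 genes kept their direction and their side of the threshold under every alternative run except 1, in which upper-quartile scaling called Boll lower in IgG than in input (-1.03, 1 gene called lower in place of 0). Of 567 log2 fold changes of the 9 genes under alternatives, 566 kept their call. Counts over all tested genes moved by over 1.5 times with the test against a 2-fold change and on the log2(FPKM + 1) scale, whose pseudocount shrinks low genes. In acRIP against IgG, 2590 higher genes became 1526 and 1010 under these, and 4702 lower genes became 1455 on the FPKM scale. In acRIP against input, 3984 higher and 5145 lower became 1846 and 2019 on the FPKM scale. In IgG against input, 3028 higher became 1724 and 1253, and 1626 lower became 563 and 425. Of the 53 other listed genes, on the FPKM scale 1 was higher and 1 lower in acRIP against IgG, 6 and 0 in acRIP against input, and 6 higher in IgG against input. The test against a 2-fold change left 1 higher and 0 lower in acRIP against IgG and 1 lower in acRIP against input, and upper-quartile scaling gave 2 lower in IgG against input. The replicate block called 2557 genes higher and 4639 lower in acRIP against IgG and 5 of the 9 genes higher in both comparisons with input, and changed no call of the 9. Samples with the same number hardly deviated together (correlations of -0.0052 to 0.0728). The sources do not say whether they share an origin, and these correlations cannot decide it, since variation between precipitations or libraries could hide one.

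With 1 library fewer, Elavl4 lay between -0.040 and 0.20 in acRIP against IgG and between -0.29 and 0.0047 in acRIP against input, and Lin28a lay between -0.33 and 0.035 in IgG against input. None of these was past the threshold. Upper-quartile scaling turned Elavl2 to -0.014 in IgG against input, also short of it. The cause of these shifts was not tested. Of 1008 log2 fold changes of the other named genes under alternatives, 26 lost and 16 gained a call, among them Zfp36, at 0.99 in acRIP against input, and Cdc25c in IgG against input, called lower with upper-quartile scaling (-1.07) and without input replicate 2, IgG replicate 2 or IgG replicate 3. FPKM levels moved by more than the replicate SD in 20 of 135 cases, all by changes of scaling. Depth limits Cpeb1, with 53 to 181 counts per library, and precision for all genes rests on 3 libraries a group.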
